A study of Mus musculus with 22 samples.

Results

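The respiratory chain genes described here are the nuclear genes for the electron transport complexes and the ATP synthase of the mitochondrion, read as chromatin accessibility at their gene ends in mouse male germ cells. Members were chosen by symbol from RefSeq protein-coding genes on chromosomes 1 to 19: symbols starting with Nduf, Uqcr or Atp5, the Sdha to Sdhd genes, Cyc1, Cycs, Cyct, and Cox4 to Cox8 with a subunit suffix. The rule found 96 of 20665 autosomal protein-coding genes, namely 39 for complex I, 8 complex I assembly factors (Ndufaf genes), 4 for complex II, 9 for complex III, 2 for cytochrome c, 17 for complex IV and 17 for the ATP synthase, complex V. Each gene was read through 1 peak, the one with the highest mean count among peaks within 1 kb of either annotated end. Such a peak was found for 91 members and not for Atp5d, Cox5a, Cox8b, Ndufb4b and Ndufb4c.

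Accessibility was measured by ATAC-seq, in which Tn5 transposase inserts adapters into open DNA, in 22 libraries of FACS-sorted germ cells from C57BL/6 mice aged 8 to 12 weeks. Of these, 17 came from spermatogonia taken on day 7 after tamoxifen, sorted by MCAM, an adhesion molecule, and KIT, the receptor carried by differentiating spermatogonia. The TERT-hetero mice, called control here, gave 3 libraries of MCAM-high KIT-negative and 2 of MCAM-medium KIT-negative undifferentiated spermatogonia and 3 of MCAM-medium KIT-positive differentiating spermatogonia, and the TERT-deleted mice gave 3 of each. All 17 share the genotype entry TertCreER/+:Rosalsl-Tdtomato/+, so controls carry the Cre driver inserted at Tert, the tdTomato reporter and the tamoxifen as well, and only the sample titles separate the genotypes. The remaining 5 libraries, of later germ cells, came from heterozygous TertTdtomato/+ mice. Their titles and library names disagree on spermatocyte or round spermatid in 4 of 5 cases, so they form 1 group, and all 5 library names carry 1 animal number, so they may share a source. The labels do not state separate animals for the replicates, and the p-values below therefore cover library-to-library spread that could be technical.

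Complex I passes electrons from NADH, and complex II from succinate, to ubiquinone. Complex III hands them to cytochrome c and complex IV to oxygen, and the ATP synthase uses the resulting proton gradient. Most subunits are made from nuclear genes, often with promoters that carry sites for NRF1, GABP and YY1. Male germ cells replace several subunits by testis isoforms as they enter meiosis, of which Cyct, the testis cytochrome c, is the best known.

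The promoters of 8 members are printed because the results below return to them. Ndufa11 and Atp5g1 rose with KIT and fell in later cells, while Ndufs8 fell and Ndufaf1 rose in later cells. Atp5j2 moved against most members in control cells. Cyct and Cox6b2 are testis isoforms, and Cycs is the somatic partner of Cyct. Each is the RefSeq promoter window (assembly GRCm38.p6), 250 bases before to 50 after the transcription start, 5′ to 3′ on the gene's strand. Capitals mark every match, on either strand, to 6 searched motifs. For NRF1 the letters searched were CATGCGC, for the ETS family that holds GABP they were CCGGAAG, and for YY1 they were ATGGCGG. The SP1 motif was searched as GGGCGG, the cyclic AMP response element (CRE) as TGACGT and the TATA box as TATAAA.
Ndufa11 (chr17:56717512-56717811, plus strand): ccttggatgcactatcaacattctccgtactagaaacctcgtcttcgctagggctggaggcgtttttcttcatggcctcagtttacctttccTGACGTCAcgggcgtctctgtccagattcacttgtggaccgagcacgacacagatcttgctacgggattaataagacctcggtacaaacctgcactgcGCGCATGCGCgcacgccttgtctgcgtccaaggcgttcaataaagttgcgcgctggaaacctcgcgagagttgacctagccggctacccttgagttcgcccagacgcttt
Atp5g1 (chr11:96075582-96075881, minus strand): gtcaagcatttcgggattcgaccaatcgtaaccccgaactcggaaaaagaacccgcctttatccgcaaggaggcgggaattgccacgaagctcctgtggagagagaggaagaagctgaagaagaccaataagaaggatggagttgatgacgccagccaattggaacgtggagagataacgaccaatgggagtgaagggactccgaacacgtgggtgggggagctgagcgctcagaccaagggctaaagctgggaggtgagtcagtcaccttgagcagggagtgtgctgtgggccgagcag
Atp5j2 (chr5:145191492-145191791, minus strand): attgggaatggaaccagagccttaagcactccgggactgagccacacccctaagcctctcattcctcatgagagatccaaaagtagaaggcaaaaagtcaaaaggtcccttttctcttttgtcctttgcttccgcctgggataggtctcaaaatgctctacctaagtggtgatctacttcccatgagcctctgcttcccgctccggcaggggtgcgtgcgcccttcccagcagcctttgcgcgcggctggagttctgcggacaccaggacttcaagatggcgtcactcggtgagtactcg
Ndufs8 (chr19:3912725-3913024, minus strand): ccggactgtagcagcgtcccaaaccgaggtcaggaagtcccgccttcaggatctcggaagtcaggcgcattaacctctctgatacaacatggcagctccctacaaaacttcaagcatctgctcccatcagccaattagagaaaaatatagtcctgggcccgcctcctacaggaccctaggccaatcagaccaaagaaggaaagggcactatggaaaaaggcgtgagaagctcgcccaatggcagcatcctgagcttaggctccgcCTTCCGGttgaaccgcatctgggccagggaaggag
Ndufaf1 (chr2:119662785-119663084, minus strand): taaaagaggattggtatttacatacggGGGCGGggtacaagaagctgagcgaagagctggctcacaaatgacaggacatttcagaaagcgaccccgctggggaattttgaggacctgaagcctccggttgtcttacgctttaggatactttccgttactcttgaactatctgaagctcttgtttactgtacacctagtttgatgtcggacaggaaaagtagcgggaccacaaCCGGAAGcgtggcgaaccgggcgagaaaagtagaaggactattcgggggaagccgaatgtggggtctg
Cyct (chr2:76360404-76360703, minus strand): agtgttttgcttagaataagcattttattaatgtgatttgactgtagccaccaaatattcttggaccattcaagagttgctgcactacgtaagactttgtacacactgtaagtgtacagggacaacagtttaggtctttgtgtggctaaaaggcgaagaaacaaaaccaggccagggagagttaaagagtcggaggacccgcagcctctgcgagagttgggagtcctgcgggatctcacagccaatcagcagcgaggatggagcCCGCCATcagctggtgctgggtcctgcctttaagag
Cycs (chr6:50566520-50566819, minus strand): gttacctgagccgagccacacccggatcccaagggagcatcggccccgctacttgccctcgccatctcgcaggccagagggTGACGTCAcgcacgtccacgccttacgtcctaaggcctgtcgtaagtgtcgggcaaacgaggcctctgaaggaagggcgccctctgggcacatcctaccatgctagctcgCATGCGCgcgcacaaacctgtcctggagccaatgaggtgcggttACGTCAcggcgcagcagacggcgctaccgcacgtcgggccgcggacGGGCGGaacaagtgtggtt
Cox6b2 (chr7:4753045-4753344, minus strand): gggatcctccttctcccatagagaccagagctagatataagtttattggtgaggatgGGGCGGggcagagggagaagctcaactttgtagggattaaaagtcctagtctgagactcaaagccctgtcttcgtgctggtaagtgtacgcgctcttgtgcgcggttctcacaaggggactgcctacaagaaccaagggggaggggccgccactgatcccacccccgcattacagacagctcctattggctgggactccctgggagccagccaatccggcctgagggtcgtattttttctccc

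The Ndufa11 window held overlapping NRF1 matches that began 57 and 60 bases upstream of the start, and CRE matches 156 and 158 bases upstream. The Cycs window held an NRF1 match 59 bases upstream, CRE matches 15, 167 and 169 bases upstream, and an SP1 match 32 bases downstream. In Ndufaf1 an ETS match began 18 bases upstream and an SP1 match 223 bases upstream, and in Ndufs8 an ETS match lay 16 bases downstream. Cyct held 1 YY1 match 15 bases downstream, Cox6b2 held 1 SP1 match 193 bases upstream, and Atp5g1 and Atp5j2 held none of the 6. A CRE palindrome (TGACGTCA) counts once on each strand. Windows were listed for 73 members with a peak, and 70 of these lay on the member's peak. NRF1 letters were in 15 of the 70 (21.4%) against 3.91% of all 32851 listed promoters, ETS letters in 18 (25.7% against 8.86%) and YY1 letters in 12 (17.1% against 4.06%). SP1 letters were in 30 (42.9% against 35.7%), CRE letters in 10 (14.3% against 7.51%) and TATA letters in 7 (10% against 13.6%), and 17 windows held none of the 6. The median GC content of the member windows was 58.5%, against 52.7% for all. Member windows were 1 per gene and lay on a peak, while the 32851 were limited in neither way. The shares therefore do not compare respiratory genes with other open promoters. A match describes letters in the window and no more.

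Total counts in peaks ran from 922085 to 3358377 per library, and 3 counts, the limit a count of 0 allows, stood for 0.893 to 3.25 CPM (counts scaled to library size). This floor uses total counts alone, while CPM levels below, unless stated, also use TMM factors over all libraries. The marker lists followed the sort only in part. The peak of Kit averaged 30.7 CPM in control MCAM-high and 60.9 ± 5.66 (SD, n = 3) in control KIT-positive cells, and that of Prm2, a sperm chromatin protein, 5.18 in control KIT-positive and 58.0 ± 12.6 (SD, n = 5) in later cells. From control MCAM-high to KIT-positive cells 2 of 7 markers of differentiating spermatogonia rose, and of 15 markers of undifferentiated spermatogonia 2 fell and none rose, with a median log2 difference of -0.025 and sums of 403 to 436 against 352 to 501 CPM. In deleted mice 2 of the 15 rose and 1 fell, with a median of 0.15. From control KIT-positive to later cells 10 of 12 spermiogenesis markers rose and 1 fell, and of 14 meiosis markers 5 rose and 2 fell. Peaks of somatic cell markers were above 3 counts in some library for every listed gene with a peak, with summed levels of 117 to 126 CPM for the 6 Sertoli cell markers (of 9 listed) in control MCAM-high and KIT-positive libraries. The same sum was 46.6 to 65.6 CPM in later libraries. The 4 immune markers (of 8) summed to 46.7 to 64.8 CPM in the former and 16.03 to 28.6 CPM in the latter. Peritubular or endothelial markers (5 of 8) summed to 88.2 to 109 CPM in control MCAM-high, 73.8 to 118 in control KIT-positive and 37.5 to 55.1 in later libraries. For the 2 Leydig cell markers (of 7) these sums were 49.5 to 67.5, 32.1 to 50.6 and 13.1 to 19.4 CPM. The part of such cells in the results was not tested. An accessibility level in a sorted pool cannot tell fewer cells with an open site from less opening per cell.

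Of the 91 peaks, 83 covered the annotated gene end itself, and 8 lay a median of 403.5 bp away, among them those of Cox4i2, Cox7a2, Atp5g3, Ndufb6, Ndufa13, Atp5j and Cox6a2. Peaks were 227 to 2265 bp wide, with a median of 899 bp. Many served a second gene: 42 lay within 1 kb of another gene's end and 24 overlapped another gene's promoter window, among them the peaks of Ndufa11 (with Vmac), Ndufs1 (with Eef1b2), Sdhd (with Timm8b), Uqcrh (with Lrrc41), Ndufa4 (with Phf14) and Atp5j (with Gabpa, a GABP subunit). A change in such a peak belongs to both genes.

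Accessibility of the respiratory chain genes took a growing share of the counts at gene ends along the sorted stages. The members' share of gene-end counts was 0.753 to 0.772% in the 3 control MCAM-high libraries, 0.747 to 0.814% in the 2 MCAM-medium ones, 0.800 to 0.880% in the 3 KIT-positive ones and 0.992 to 1.07% in the 5 later ones. In deleted mice it was 0.729 to 0.760%, 0.744 to 0.772% and 0.788 to 0.880% for the matching spermatogonia. All control KIT-positive libraries were above all MCAM-high libraries, and all later libraries above every spermatogonial one, while the MCAM-medium values overlapped both spermatogonial neighbours. The median member rose from 27.9 CPM in MCAM-high cells to 29.3 in MCAM-medium, 39.0 in KIT-positive and 49.4 in later cells. Gene ends as a whole took 45.2 to 55.9% of the counts in control and 48.9 to 54.8% in deleted KIT-positive libraries, against 41.1 to 46.1% in all other libraries.

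**Figure D1:**
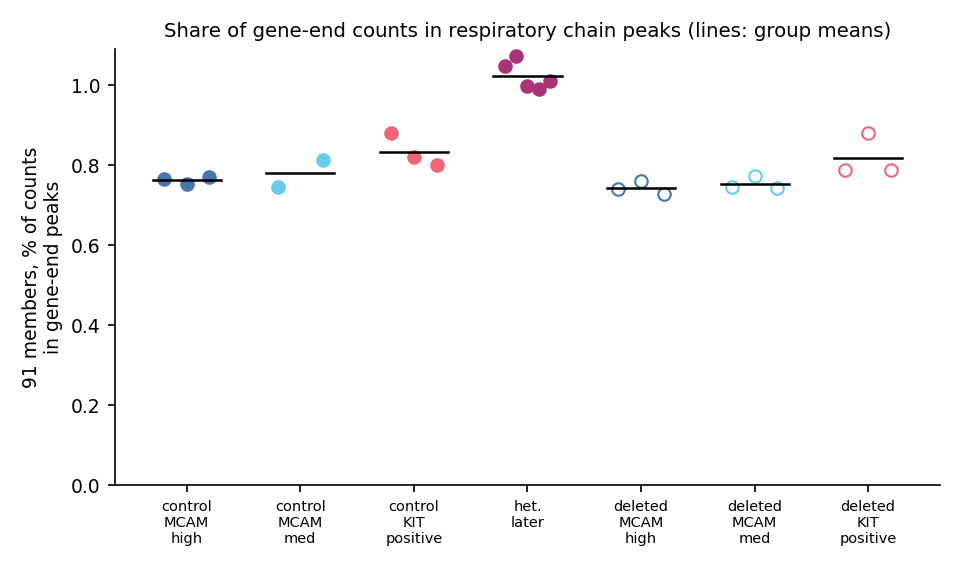
Share of the counts at gene ends that fell on the peaks of the 91 respiratory chain genes, in percent, 1 point per library with a line at the group mean, by sorted group. Control KIT-positive libraries (0.800 to 0.880%) lie above control MCAM-high ones (0.753 to 0.772%), and the 5 later libraries (0.992 to 1.07%) lie above all spermatogonia.

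The order of members per kb of peak also moved. In MCAM-high cells Ndufs8, a core iron-sulphur subunit of complex I, ranked first of 91 with 108 ± 17.1 CPM per kb (SD, n = 3), before Atp5g1, a gene for subunit c of the ATP synthase rotor, with 101 ± 21.3, Cycs with 82.4 ± 10.9 and Cox6b2 with 82.3 ± 14.5. Those last values do not differ beyond their spread. In KIT-positive cells Atp5g1 led with 191 ± 14.8 CPM per kb, and in later cells Uqcrq, a small subunit of complex III, led with 140 ± 11.2 (SD, n = 5) before Cycs with 112 ± 12.5.

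From undifferentiated to differentiating spermatogonia in control mice, 18 of the 90 testable members rose, 2 fell and 70 did not pass the test (edgeR quasi-likelihood test, Benjamini-Hochberg adjusted p under 0.05, over 57289 peaks). Among gene-end peaks of all 12502 testable autosomal protein-coding genes, 17.4% rose and 3.71% fell, and over all peaks 15.7% changed. The members' 20% and 2.22% are near that background. Their median log2 difference was 0.50, with 74 of 90 positive, against 0.27 for gene-end peaks, of which 65.3% were positive. The calls were spread over the chain, with 4 higher and 1 lower of 37 for complex I, 3 of 8 assembly factors, 1 of 4 for complex II, 2 of 9 for complex III, 3 of 14 for complex IV, and 5 higher and 1 lower of 16 for complex V. With libraries scaled on gene-end peaks alone, a setting added after seeing the data that brings the gene-end median to 0.0073, 10 rose and 3 fell, which moves the share of calls that were higher from 90% to 76.9%. Without MCAM-high replicate 3, or without KIT-positive replicate 3, 10 rose and 1 fell. Summed marker levels of differentiating spermatogonia were 144 to 174 CPM in MCAM-high and 235 to 245 CPM in KIT-positive libraries, and their part in the result was not tested.

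Among the rises, those of Ndufa11 and Ndufaf3 had the smallest p-values. Ndufa11 is a membrane subunit of complex I, and its peak (GRCm38, chr17:56716523-56718042) read 96.9, 83.0 and 106 CPM in MCAM-high, 111 and 98.3 in MCAM-medium and 188, 166 and 241 in KIT-positive control libraries. Every KIT-positive library was above every KIT-negative one. The log2 difference from MCAM-high was 1.06 ± 0.20 (SE, edgeR adjusted p = 0.000188). The peak of Ndufaf3, a complex I assembly factor (chr9:108566698-108567732), read 21.4, 18.7 and 30.0 CPM in MCAM-high, 29.5 and 32.4 in MCAM-medium and 65.5, 77.0 and 67.1 in KIT-positive libraries. KIT-positive libraries were again above all others, by a log2 difference of 1.58 ± 0.27 from MCAM-high (edgeR adjusted p = 3.71e-05).

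The ATP synthase gave 5 of the rises. Subunit c, which forms the rotor ring, has 3 genes with the same mature protein. The peak of Atp5g1 (chr11:96075382-96076217) read 102, 84.7 and 66.4 CPM in MCAM-high and 165, 145 and 168 in KIT-positive libraries, and that of Atp5g2 (chr15:102670467-102671337) 34.9, 35.7 and 35.3 against 61.1, 59.9 and 88.1. In both genes the groups did not overlap, with log2 differences of 0.91 ± 0.21 and 0.99 ± 0.24 (edgeR adjusted p = 0.00175 and 0.0026). For Atp5g3 (chr2:73910597-73911707) the groups overlapped, 31.1, 28.1 and 44.8 CPM against 56.6, 31.0 and 46.7, and the difference of 0.39 ± 0.27 did not pass (edgeR adjusted p = 0.352). The catalytic head gave Atp5a1, subunit alpha, at 1.30 ± 0.29 (edgeR adjusted p = 0.00145), and Atp5c1, the central stalk gamma, at 1.02 (edgeR adjusted p = 0.00792). Atp5b, the catalytic beta subunit, had 0.59 and did not pass (edgeR adjusted p = 0.08). Atp5h, of the peripheral stalk, rose by 1.14 (edgeR adjusted p = 0.0128).

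Complexes II, III and IV had 1, 2 and 3 called members. Sdhc, which anchors complex II in the membrane, rose by 1.19 ± 0.36 (edgeR adjusted p = 0.0172), while Sdha, the catalytic flavoprotein, and Sdhb had log2 differences of 0.62 and 0.60 that did not pass. In complex III, Uqcrc2, a core protein, rose by 0.98 ± 0.28 (edgeR adjusted p = 0.0117) and Uqcrq by 0.75 ± 0.22 (edgeR adjusted p = 0.0159), while Uqcrc1 had 0.63, Cyc1, the cytochrome c1 gene, 0.51, and Uqcrfs1, the Rieske iron-sulphur protein, 0.35. In complex IV, Cox4i1, the ubiquitous form of subunit 4, rose by 1.12 ± 0.30 (edgeR adjusted p = 0.00783), Cox6a1 by 1.02 (edgeR adjusted p = 0.0364) and Cox7a2l, which joins complexes into supercomplexes, by 0.79. None of the 7 core subunits of complex I passed: Ndufs1 had a log2 difference of 0.37, Ndufv1 0.54, Ndufs8 0.22 and Ndufs7 0.77.

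The falls were in Atp5j2, subunit f of the membrane part of the ATP synthase, and in Ndufa4, counted with complex I by its symbol although its protein is now placed in complex IV. The Atp5j2 peak (chr5:145190921-145191788) read 24.2, 25.1 and 34.3 CPM in MCAM-high, 26.4 and 12.96 in MCAM-medium and 8.19, 10.7 and 8.17 in KIT-positive control libraries. All KIT-positive libraries were below all others, and the log2 difference from MCAM-high was -1.64 ± 0.38 (edgeR adjusted p = 0.0018). The Ndufa4 peak (chr6:11907096-11907999) read 42.9, 48.5 and 50.1 against 33.5, 16.04 and 23.9 CPM, without overlap, a log2 difference of -0.92 ± 0.27 (edgeR adjusted p = 0.0163). Over the 6 fits that each left out 1 library of this comparison, the calls of Atp5a1, Atp5g1, Atp5g2, Ndufa11, Ndufaf3, Ndufaf8 and Atp5j2 were kept in all, and each of the other 13 was lost in at least 1.

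**Figure D2:**
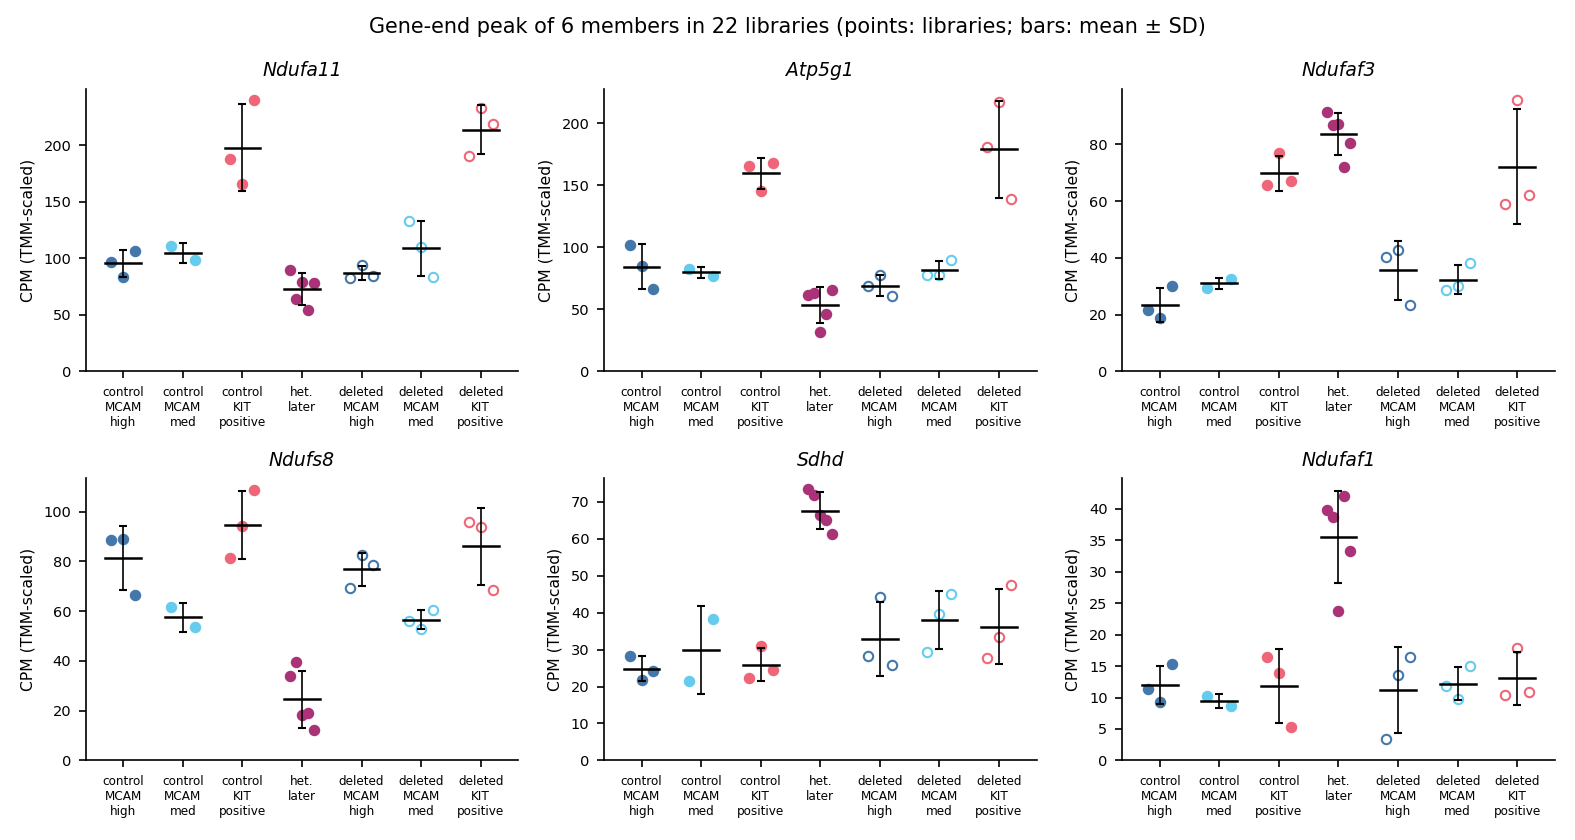
Accessibility in CPM of 6 members, 1 point per library with the group mean ± SD as bars, by sorted group for control and deleted mice and for later germ cells. Ndufa11 and Atp5g1 are highest in KIT-positive libraries, Ndufaf3 is high in KIT-positive and later libraries, Ndufs8 is low in later libraries, and Sdhd and Ndufaf1 are high there.

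Against MCAM-medium cells, 14 members rose in control KIT-positive cells and none fell, where 10.3% of gene-end peaks rose, 1.81% fell and 9.32% of all peaks changed. They included Atp5h (1.27), Ndufaf3 (1.15), Cox4i1 (1.13), Atp5g1 (0.98) and Ndufa11 (0.91) as log2 differences. This count rests on 2 MCAM-medium libraries. Without replicate 1 of that group 1 member rose and none fell, and without replicate 2 none rose and 1 fell, with the remaining MCAM-medium library assumed to vary like the other groups. None of the 14 was kept in all 5 fits that left out 1 library. A block for the source in the library name left 1 rise, and the fit of these groups alone left 0 calls. Total counts in place of TMM gave 4 rises and 2 falls, and scaling on gene-end peaks 3 and 2, so the share of calls that were higher moved from 100% to 66.7% and 60%. Between MCAM-medium and MCAM-high cells no member was called by edgeR, against 0 of the gene-end peaks and 0 of all peaks. At an unadjusted p under 0.05 edgeR had 1 member, and 165 of the 12502 gene-end peaks. DESeq2 also called 0 members, again with 1 at an unadjusted p under 0.05.

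In deleted mice 23 members rose from MCAM-high to KIT-positive cells and none fell, where 16.8% of gene-end peaks rose, 2.73% fell and 13.7% of all peaks changed. This comparison shares no library with that in control mice. Of the 18 rises in control mice, 16 were called in deleted mice, which is 88.9% of the first list and 69.6% of the second. Over gene-end peaks of all genes 1435 rises were called in both, which is 65.8% of the 2181 in control and 68.5% of the 2095 in deleted mice. The log2 differences had the same sign for 76 of 90 members, with Pearson's r = 0.65 and Spearman's rho = 0.79 over genes that share these libraries. Over all gene-end peaks the sign was the same for 79.6%, with r = 0.70 and rho = 0.72. Cox6a1 had the largest rise, 1.71 ± 0.37 (edgeR adjusted p = 0.0011), followed by Atp5h with 1.63 ± 0.36 (edgeR adjusted p = 0.00139). Ndufa11 read 82.3, 94.3 and 84.7 CPM in MCAM-high and 190.3, 233 and 219 in KIT-positive libraries of deleted mice, close to the control values, with a log2 difference of 1.31 ± 0.20 (edgeR adjusted p = 1.52e-05). Atp5g1 read 68.6, 77.4 and 60.4 against 181, 217 and 139 CPM, a difference of 1.40 ± 0.22 (edgeR adjusted p = 1.44e-05). In both genes the 2 populations did not overlap. Members called here but not in control mice included Atp5b (1.05 ± 0.24) and Ndufv2, a core subunit of complex I (0.86 ± 0.24), and whether they differ from controls is given by the deletion test that follows. Scaling on gene-end peaks left 11 rises and 1 fall, and leaving out KIT-positive replicate 1 or MCAM-high replicate 2 left 14 rises. Of the 23 calls, 10 were kept in all 6 fits that left out 1 library. Among the 16 shared with control mice, the call in deleted mice was lost in all 6 for Atp5g2 and in 3 for Cox4i1 and Ndufb4. It was lost in 2 for Ndufaf3, Uqcrc2 and Cox7a2l and in 1 for Sdhc, and the rest were kept in all 6.

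**Figure D3:**
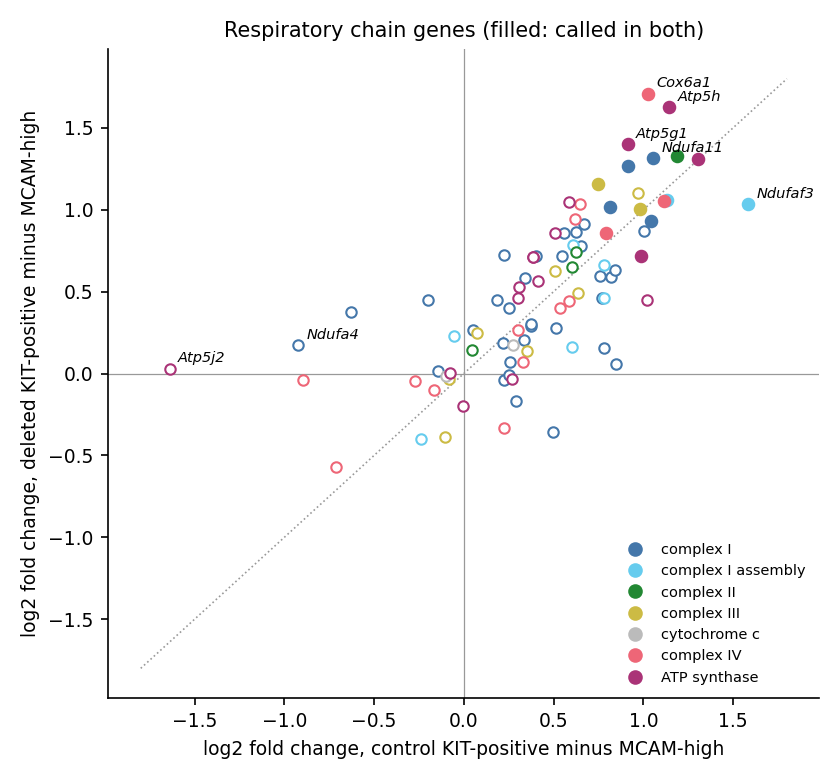
Log2 difference between KIT-positive and MCAM-high cells for the tested respiratory chain genes, less 1 that is not reported here, in control mice (x axis) and deleted mice (y axis), with the dotted line at equal values and filled points for members called in both. Most members are above 0 on both axes, while Atp5j2 and Ndufa4 are below 0 in control mice (-1.64 and -0.92) and near 0 in deleted mice (0.03 and 0.18).

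No member was called between deleted and control mice in any population. The tests covered MCAM-high cells (0.008% of gene-end and 0.0489% of all peaks called), MCAM-medium cells (0% and 0.00873%), KIT-positive cells (0% and 0.00349%), the mean over the 3 populations (0.048% and 0.124%) and the difference of the deletion effect between KIT-positive and MCAM-high cells (0% and 0%). At an unadjusted p under 0.05, edgeR had 1, 3, 3, 3 and 3 of 90 members in these tests, and DESeq2, which also called 0, had 2, 3, 3, 3 and 4. Among the 12502 gene-end peaks edgeR had 385, 427, 342, 478 and 384 at that threshold, so the member counts are no sign of a deletion effect. Atp5j2 and Ndufa4 had the smallest p-values in KIT-positive cells. Atp5j2 read 19.7, 22.8 and 17.3 CPM in MCAM-high and 10.4, 22.8 and 27.2 in KIT-positive libraries of deleted mice. Of the latter, 2 were above the control KIT-positive values of 8.17 to 10.7 CPM and 1 lay among them. The difference of its deletion effects was 1.67 ± 0.52 on the log2 scale (edgeR adjusted p = 0.909), and that of Ndufa4 was 1.10 ± 0.39 (edgeR adjusted p = 0.912). The fall of Atp5j2 in control mice is therefore not shown to differ from the 0.03 ± 0.36 in deleted mice. In MCAM-medium cells the smallest p was that of Uqcrb, a ubiquinone-binding subunit of complex III, with 33.1 and 35.1 CPM in control and 23.7, 17.4 and 12.0 in deleted libraries. The groups did not overlap, and the log2 difference was -0.97 ± 0.33 (edgeR adjusted p = 1). Its mean over the populations was -0.50 ± 0.18 (edgeR adjusted p = 0.607). In MCAM-high cells Ndufaf3 had 0.58 ± 0.27 (edgeR adjusted p = 0.816).

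From control KIT-positive to later germ cells the chain split. Of 90 testable members 27 rose, 14 fell and 49 did not pass the test, in a fit of 13 heterozygous libraries over 73134 peaks. Among gene-end peaks 19.9% rose and 29.9% fell, and 52% of all peaks changed, so the members' 30.0% and 15.6% lean the other way. Their median log2 difference was 0.13, with 55 of 90 positive, against -0.18 for gene-end peaks, of which 43.1% were positive. Rises were 52.2% of the 23 members whose peak overlapped another gene's promoter window, and 22.4% of the 67 others, near the 19.9% of gene-end peaks. Falls were 17.4% and 14.9% of these members. The gene-end peaks were not split in this way. DESeq2 called 36 higher and 7 lower, which moves the share of calls that were higher from 65.9% to 83.7%, and the fit of these groups alone gave 24 and 18. Of the 27 rises 18, and of the 14 falls 7, were kept in all 8 fits that left out 1 library. Both counts of rises, 27 and 18, include the rule's peak of Cox7a2. It held 2 counts in the 3 KIT-positive and 64 in the 5 later libraries, and did not pass the count filter of the spermatogonial fit. The genotype entry, the tamoxifen entry and the stage differ together between the 2 groups and cannot be told apart. The 3 control KIT-positive libraries also serve the comparison with MCAM-high cells, so a deviation of these libraries enters both results with opposite sign.

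Complex I gave 10 rises and 6 falls among 36 tested members. Among its core subunits Ndufs1, the large iron-sulphur protein, and Ndufs3 rose, while Ndufs8 and Ndufv1, the NADH-binding flavoprotein, fell. The Ndufs8 peak (chr19:3912472-3913225) read 81.2, 94.1 and 109 CPM in control KIT-positive and 34.0, 39.4, 18.3, 19.02 and 12.2 in later libraries. All later libraries were far below, and the log2 difference was -1.95 ± 0.24 (edgeR adjusted p = 1.73e-09). The Ndufs1 peak (chr1:63176283-63177483, shared with Eef1b2) went the other way, from 45.4, 38.5 and 23.9 CPM to 108, 91.2, 89.3, 68.2 and 87.8, also without overlap, by 1.29 ± 0.25 (edgeR adjusted p = 1.45e-05). Ndufv1 fell by 1.09 on the log2 scale (edgeR adjusted p = 0.000237) and Ndufv3 by 1.39 (edgeR adjusted p = 3.98e-06). Ndufa11, which had risen with KIT, read 89.9, 64.4, 78.6, 53.8 and 78.4 CPM in later libraries. These are below the 3 KIT-positive values and close to the KIT-negative ones, a difference from KIT-positive cells of -1.47 ± 0.19 (edgeR adjusted p = 4.24e-09). Ndufa4, which had fallen with KIT in control mice, rose by 0.99 ± 0.27 (edgeR adjusted p = 0.00153). It averaged 24.5 CPM in control KIT-positive, 43.7 in deleted KIT-positive and 51.0 in later cells. For Ndufa11 these means were 198, 214 and 73.0 CPM.

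Of the 8 complex I assembly factors 5 rose (Ndufaf1, Ndufaf2, Ndufaf4, Ndufaf5 and Ndufaf6) and Ndufaf8 fell. The call of Ndufaf5 was lost in 4 of 8 fits that left out 1 library, and that of Ndufaf8 without KIT-positive replicate 3. The Ndufaf1 peak (chr2:119662454-119663128) read 16.4, 13.9 and 5.25 CPM in control KIT-positive and 39.8, 38.7, 23.7, 42.0 and 33.3 in later libraries. The groups did not overlap, and the log2 difference was 1.61 ± 0.35 (edgeR adjusted p = 0.000113). Ndufaf3 read 72.2 to 91.6 CPM in later libraries, which overlapped the KIT-positive ones, with a log2 difference of 0.23 ± 0.21 (edgeR adjusted p = 0.371).

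The ATP synthase gave 4 rises (Atp5j2, Atp5l, Atp5md and Atp5mpl, all small membrane subunits or associated proteins) and 3 falls (Atp5g1, Atp5g2 and Atp5o) among 16 tested members. Atp5l, subunit g (chr9:44920023-44920924), went from 11.9, 27.8 and 18.7 CPM to 57.2, 57.5, 55.0, 49.8 and 49.5, without overlap, a log2 difference of 1.47 ± 0.28 (edgeR adjusted p = 1.77e-05). Atp5j2 rose by 1.48 ± 0.36 and Atp5mpl by 1.26 ± 0.27 (edgeR adjusted p = 0.000549 and 0.000115), while Atp5k, subunit e, had 0.21 ± 0.29 (edgeR adjusted p = 0.563). Atp5j2 averaged 9.02 CPM in control KIT-positive, 20.1 in deleted KIT-positive and 24.9 in later cells. For Atp5g1 these means were 160, 179 and 53.5 CPM. The call of Atp5md, at 0.58 ± 0.22 (edgeR adjusted p = 0.0233), was lost in 2 of 8 fits that left out 1 library. Atp5g1 read 61.6, 63.1, 31.3, 45.9 and 65.6 CPM in later libraries, all below the 145 to 168 CPM of KIT-positive cells, a log2 difference of -1.60 ± 0.21 (edgeR adjusted p = 3.71e-09). Atp5g2 had -0.63 ± 0.22 (edgeR adjusted p = 0.0151), a call lost without KIT-positive replicate 3. Atp5o, OSCP of the peripheral stalk, fell by 0.88 on the log2 scale (edgeR adjusted p = 0.0244), a call lost in 3 of the 8 fits. Atp5a1 and Atp5b, in the catalytic head, had -0.26 and -0.07 and did not pass.

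In complex II only Sdhd, the small membrane anchor, passed. Its peak (chr9:50603407-50604580, shared with Timm8b) read 22.3, 31.0 and 24.5 CPM in control KIT-positive and 73.5, 71.9, 66.4, 64.9 and 61.1 in later libraries, without overlap and with little spread, a log2 difference of 1.37 ± 0.26 (edgeR adjusted p = 1.21e-05). Sdha and Sdhb had 0.08 and 0.01. In complex III, Uqcrh, the acidic hinge protein (chr4:116074823-116077088), went from 93.8, 91.9 and 81.7 CPM to between 140.4 and 201 in the 5 later libraries, by 0.84 ± 0.20 (edgeR adjusted p = 0.000436). Uqcrfs1 rose by 0.68 ± 0.25 (edgeR adjusted p = 0.02) and Uqcr10 fell by 0.69 on the log2 scale (edgeR adjusted p = 0.0305), calls lost in 2 and 6 of the 8 fits that left out 1 library. Uqcrc1 (0.55) and Cyc1 (0.17) did not pass. Members whose peak overlapped another gene's promoter window gave 12 rises and 4 falls of 23, and the others 15 and 10 of 67.

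**Figure D4:**
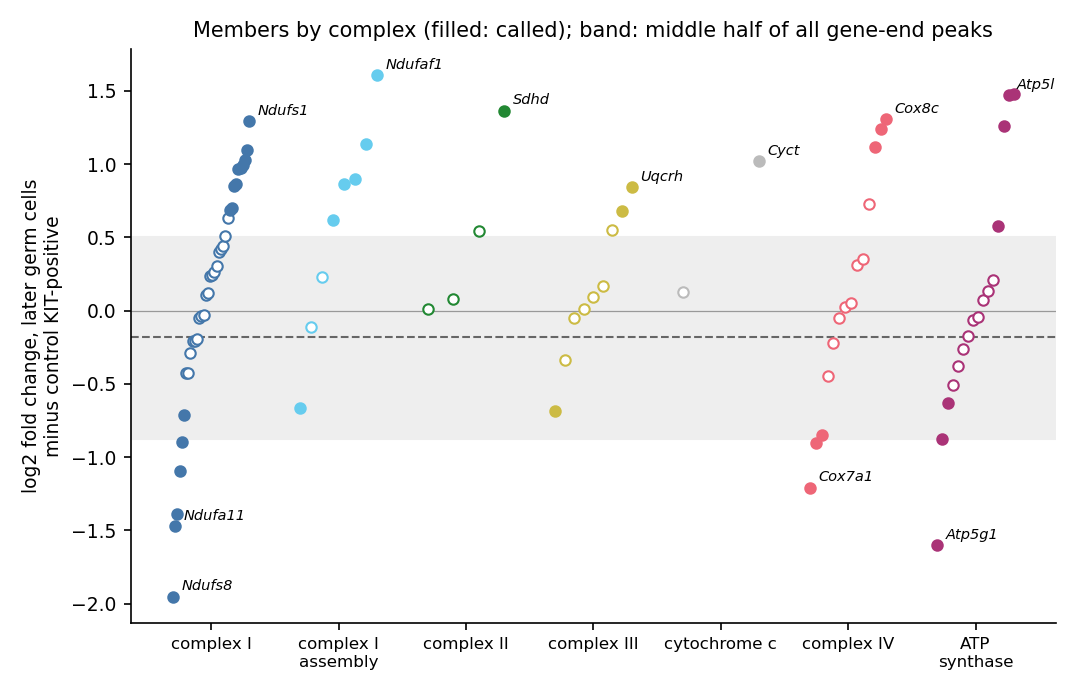
Log2 difference between later and control KIT-positive cells for each tested member except Cox7a2, by complex. The dashed line is the median of all gene-end peaks (-0.18) and the band their interquartile range (-0.88 to 0.51), and members lie on both sides in complexes I, IV and V.

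The testis isoforms already had peaks with counts in spermatogonia. Cyct (chr2:76359906-76360877) read 19.4, 24.7 and 29.5 CPM in MCAM-high, 18.3 and 19.4 in MCAM-medium, 29.8, 12.8 and 24.5 in KIT-positive and 59.6, 38.7, 42.8, 51.2 and 44.5 in later libraries. All later libraries were above all spermatogonia of control mice, which overlapped among themselves. The difference of later from KIT-positive cells was 1.02 ± 0.28 on the log2 scale (edgeR adjusted p = 0.00175), and that of KIT-positive from MCAM-high cells -0.10 ± 0.34 (edgeR adjusted p = 0.881). Its somatic partner Cycs (chr6:50566150-50567114) read 63.3, 91.9 and 132 CPM in KIT-positive and 100.4, 99.98, 114, 126 and 97.8 in later libraries, which overlapped, and the difference of 0.13 ± 0.21 did not pass (edgeR adjusted p = 0.634).

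Cox6b2, the testis form of complex IV subunit 6b (chr7:4752032-4753404), did not rise at any step. It read 105, 97.9 and 135 CPM in MCAM-high, 113, 94.1 and 94.0 in KIT-positive and 82.4, 82.5, 81.7, 62.3 and 67.2 in later libraries. All later values were below the control spermatogonial ones, with a log2 difference of -0.45 ± 0.20 from KIT-positive cells that did not pass (edgeR adjusted p = 0.0502). Per kb of peak it ranked 4 of 91 in MCAM-high cells with 82.3 ± 14.5 CPM, where its somatic partner Cox6b1 (chr7:30625518-30626381) ranked 81 of 91 with 17.1 ± 2.30 CPM per kb. Cox6b1 read 17.9, 23.5 and 15.2 CPM in KIT-positive and 36.1, 47.5, 25.2, 12.5 and 33.9 in later libraries, with overlap and a log2 difference of 0.73 ± 0.33 (edgeR adjusted p = 0.0599).

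Cox8c (chr12:102899091-102899547) was low throughout, at 9.68, 2.14 and 2.34 CPM in KIT-positive and 18.4, 8.12, 4.58, 8.53 and 19.5 in later libraries. The groups overlapped, and the rise of 1.31 ± 0.53 (edgeR adjusted p = 0.0347) was lost in 4 of 8 fits that left out 1 library. Its somatic partner Cox8a (chr19:7217183-7218132) fell from 98.3, 78.0 and 114 CPM to 71.8, 56.2, 45.8, 39.4 and 50.6, without overlap, by -0.90 ± 0.21 (edgeR adjusted p = 0.000381). Cox7b2 (chr5:71547779-71548572) read 35.0, 24.6 and 63.0 CPM in KIT-positive and 33.6 to 47.2 in later libraries, with overlap and a difference of -0.05 ± 0.25 (edgeR adjusted p = 0.892). Of the 4 testis isoforms 2 rose in later cells and none passed between MCAM-high and KIT-positive cells.

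**Figure D5:**
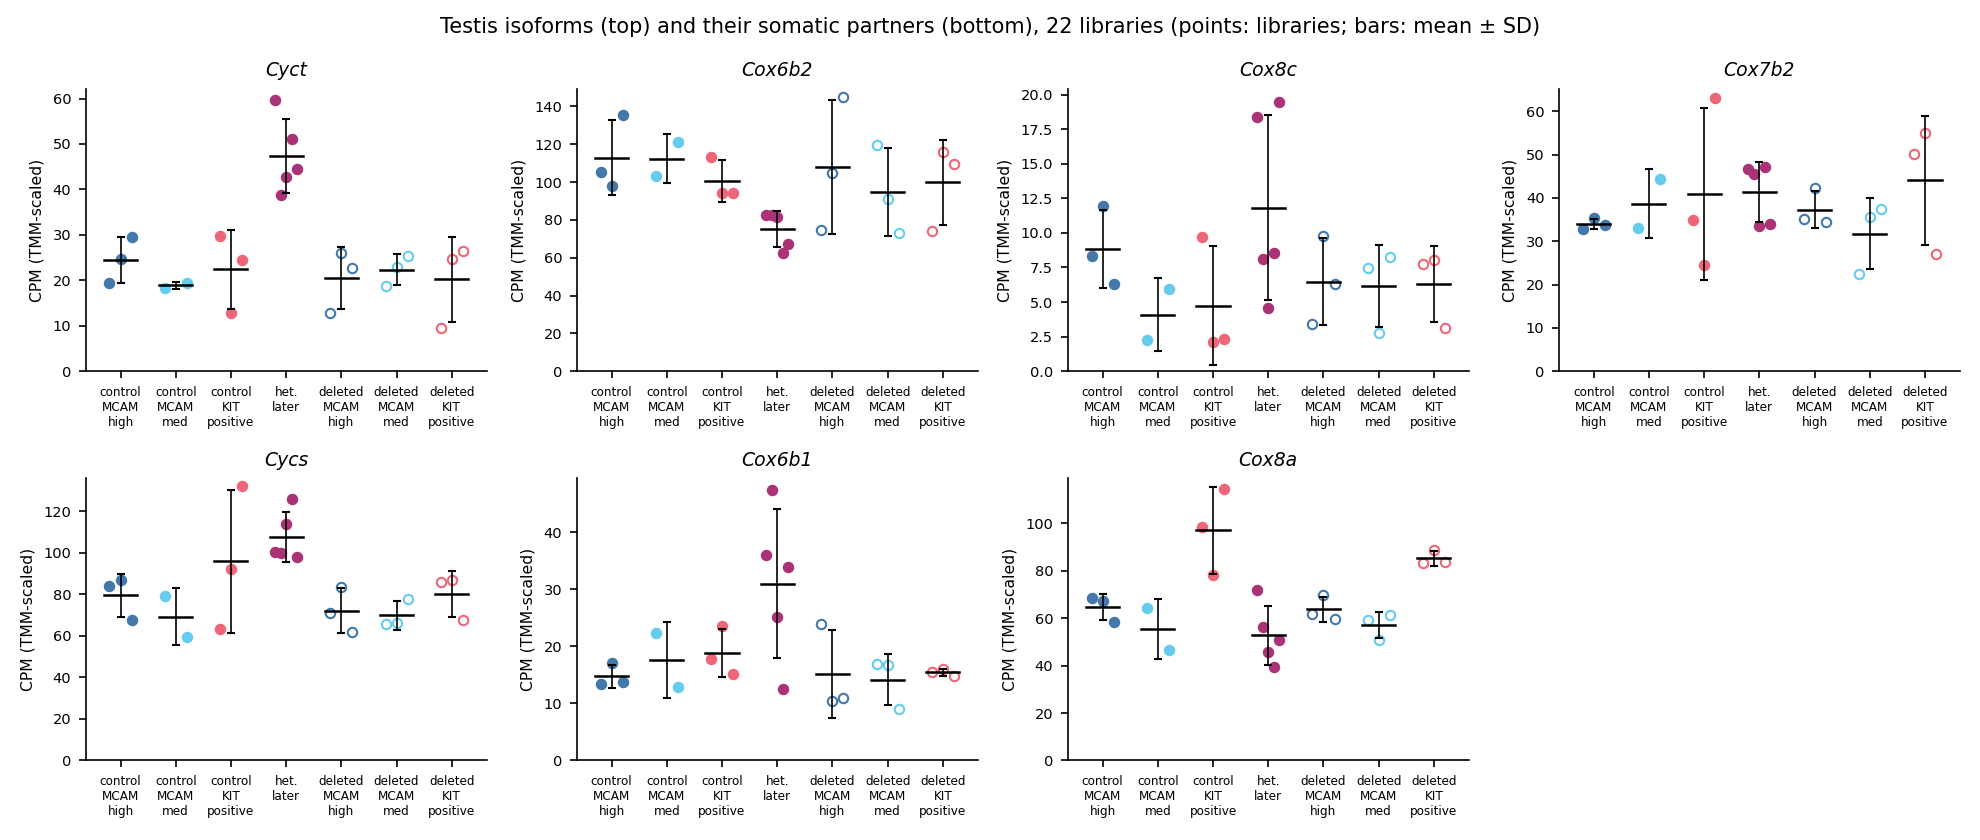
Accessibility in CPM of the 4 testis isoforms Cyct, Cox6b2, Cox8c and Cox7b2 and of the somatic partners Cycs, Cox6b1 and Cox8a, 1 point per library with the group mean ± SD as bars, by sorted group. Cyct is highest in the 5 later libraries (38.7 to 59.6 CPM), Cox6b2 is lower there (62.3 to 82.5 CPM) than in control spermatogonia, and Cox8a is lower in later than in control KIT-positive libraries.

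Isoforms known from muscle or other restricted tissues did not move together. From KIT-positive to later cells Cox7a1, the heart and skeletal muscle form of subunit 7a, fell by 1.21 on the log2 scale (edgeR adjusted p = 0.00469), as did Cox4i2, the lung form of subunit 4, by 0.85 (edgeR adjusted p = 0.0178). Cox6a2, the muscle form of subunit 6a, rose by 1.24 (edgeR adjusted p = 0.0109), and Ndufa4l2 had -0.21. Without KIT-positive replicate 1 the calls of Cox4i2 and Cox6a2 were lost (edgeR adjusted p = 0.341 and 0.0637). From MCAM-high to KIT-positive cells in control mice the log2 differences were -0.71, 0.65, 0.22 and 0.23 for Cox7a1, Cox4i2, Cox6a2 and Ndufa4l2, none past the test. Cox4i2 was called higher in KIT-positive cells against MCAM-medium cells in control mice (1.11, edgeR adjusted p = 0.0479) and against MCAM-high cells in deleted mice (1.04, edgeR adjusted p = 0.0288). The first call was lost without control KIT-positive replicate 1 and without replicate 3. It rests on 2 MCAM-medium libraries, and fits that leave only 1 of these are not counted here. The second call was lost in 4 of 6 fits that left out 1 library.

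For some members the strongest gene-end peak was not the one at the start site. The rule's peak for Ndufb6 fell in later cells (-0.71, a call lost without KIT-positive replicate 3), while the peak on its promoter window rose by 1.05 ± 0.25 (edgeR adjusted p = 0.000416). The promoter peak of Ndufa13, a membrane-arm subunit of complex I, rose with KIT in control mice by 1.31 ± 0.34 (edgeR adjusted p = 0.00604), where the rule's peak had 0.82 ± 0.30 (edgeR adjusted p = 0.0531), and had 0.49 ± 0.35 in deleted mice (edgeR adjusted p = 0.382). For Cox7a2, a somatic form of subunit 7a, the rule's peak held 2 counts in the 3 KIT-positive and 64 in the 5 later libraries, too few for a fold. Its promoter peak averaged 33.7 CPM in MCAM-high, 50.5 in KIT-positive and 74.3 in later cells, with a log2 difference of 0.54 ± 0.23 for the last step (edgeR adjusted p = 0.047). With KIT it had 0.55 ± 0.27 in control mice (edgeR adjusted p = 0.158) and rose by 1.04 ± 0.28 in deleted mice (edgeR adjusted p = 0.00923). Atp5d and Cox5a had no peak by the rule but had one on a promoter window: Atp5d, subunit delta, averaged 25.7, 43.0 and 23.0 CPM and fell by 0.97 on the log2 scale in later cells (edgeR adjusted p = 0.00227), and Cox5a averaged 23.9, 35.9 and 43.9 CPM with a difference of 0.23.

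Genes that build or regulate the chain were read from 3 lists. Of 38 testable assembly and membrane factors, 10 rose and none fell with KIT in control mice, among them Cox20 (1.44), Ttc19 (1.27), Timmdc1 and Bcs1l, and 6 rose in deleted mice. In later cells 8 rose and 6 fell: Uqcc1, a complex III factor (2.17), and Nubpl, which delivers iron-sulphur clusters to complex I (1.77), had the largest rises, and Sdhaf1 (-1.84), Tmem126b (-1.61) and Ecsit (-1.29) the largest falls. Of 13 testable regulators of mitochondrial genes, 4 rose with KIT in control mice (Esrra, Yy1, Pprc1 and Tfam), 7 in deleted mice, and in later cells 2 rose and 6 fell. The peak of Esrra, a nuclear receptor that drives respiratory genes, averaged 44.2 CPM in MCAM-high, 108 ± 52.1 (SD, n = 3) in KIT-positive and 16.5 ± 1.56 (SD, n = 5) in later cells. Its fall in later cells was the largest on the list, -2.74 ± 0.25 (edgeR adjusted p = 9.14e-14), followed by Polrmt, the mitochondrial RNA polymerase (-2.12), and Tfb1m (-1.75), while Twnk, the mitochondrial helicase, rose by 1.47 and Ssbp1 by 0.68. The counts of these lists stand beside the same background as the members. Among gene-end peaks 17.4% rose and 3.71% fell with KIT in control mice, and 16.8% and 2.73% in deleted mice. In later cells 19.9% rose and 29.9% fell.

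The X chromosome, silenced in meiosis, holds 3 subunit genes outside the rule. None was called between MCAM-high and KIT-positive cells. In later cells Ndufa1 rose by 1.24 ± 0.53 (edgeR adjusted p = 0.045) and Ndufb11 fell by 0.83 on the log2 scale (edgeR adjusted p = 0.0232). The Cox7b peak (chrX:106023082-106023403) held 28 counts in the 3 KIT-positive libraries and 0 in each of the 5 later ones. This is at least 22.4-fold lower against a floor of 3 counts over the later group (6.61 CPM against 0.296 CPM, both scaled to total counts without TMM).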

How the data were processed

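ATAC-seq libraries of 22 sorted germ cell samples were used. The authors deposited whole-number counts per peak, not normalized, for 96049 peaks with chromosome, start and end, per the file headers. The tools listed are Bowtie2, FastQC, Picard and SAMtools, per the submitters' processing notes, which give hg19 beside mm10 and GRCm38 as builds with no role stated. The peak caller, the counting tool, any Tn5 offset and any duplicate filter are not given in the sources used here. Between 48.8% and 73.9% of a library's nonzero counts were even, and floors cover counting error only.

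Groups were taken from sample titles. Peaks were assigned with the RefSeq gene table of GRCm38.p6, which gives no strand, so either gene end counted, and peaks were not placed in exons, introns or UTRs. Peak counts entered edgeR 4.0.16 under R 4.3.3 (TMM, filterByExpr by group, quasi-likelihood F test, Benjamini-Hochberg over all tested peaks) in 2 fits: 17 spermatogonial libraries in 6 groups (57289 peaks, 11 residual degrees of freedom) and 13 heterozygous libraries in 4 groups (73134 peaks, 9 residual degrees of freedom). The log2 differences come from these fits, and the standard error is the difference divided by the square root of F. The script was tested on simulated data. CPM used TMM over all 22 libraries, except for the floors and the Cox7b values, which were scaled to total counts. Alternatives were DESeq2 1.42.0, total counts, no filter, other peak rules, the groups compared alone, a replicate block and leaving out each library. Scaling by TMM over gene-end peaks was chosen after seeing the data. The members, lists and tests were chosen with earlier results of these data known. Named were the testis, restricted and core subunits, the members without a peak, up to 3 called members per complex, direction and comparison with the largest change, and in deletion tests the 3 smallest p-values. Of these subunits 1 is counted but not reported by name here. Other genes named were chosen after their values were seen. Tables and plots used Python 3.11.15, pandas 2.3.3, numpy 2.4.6 and matplotlib 3.10.9.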

Additional observations from a re-analysis of the deposited data

Results flagged for a closer look

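In 59 members named or examined in the text, the 5 later libraries were checked for 1 library that stood apart from the other 4 by a gap over 0.71 of the group's range, which chance gives in about 1 in 20 groups. Only 3 were found, all above the rest. Atp5o, the peripheral stalk subunit OSCP, read 20.6 CPM in later replicate 2 and 9.16 to 12.2 CPM in the others. The rule's peak of Cox7a2 read 13.3 CPM in later replicate 5 and 4.43 to 6.56 CPM in the others. Uqcr10, a small complex III subunit, read 39.2 CPM in later replicate 1 and 21.1 to 25.6 CPM in the others. The 3 values came from 3 different libraries.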

How the results depend on the processing

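Counts of called members moved by more than 1.5 times in 3 comparisons. For KIT-positive against MCAM-high cells in control mice (20 calls), scaling on gene-end peaks gave 13, and leaving out 1 library gave 11 to 26. In deleted mice (23 calls) the same gave 12, and 14 to 19. Against MCAM-medium cells (14 calls), total counts gave 6, gene-end scaling 5, no filter 6, the compared groups alone 0, the replicate block 1, and leaving out 1 library 1 to 16. Later cells against KIT-positive ones (41 calls) stayed at 35 to 40 without 1 library, and deletion tests at 0 throughout. With the replicate block the control and deleted KIT-positive against MCAM-high counts were 18 and 18. The deviations of libraries that carry the same source in their name correlated between -0.42 and 0.053. Libraries of 1 genotype with different sources gave -0.23 to 0.42, and libraries of different genotype with the same number -0.11 to 0.098. In a group of 2 libraries, as in control MCAM-medium cells, the deviations mirror each other, so these values cannot decide whether libraries are paired. The reported fits took no pairing. 

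Differences that changed sign were small in the reported fit, and none passed under the alternative (lowest adjusted p 0.272, edgeR). For KIT-positive against MCAM-high cells in control mice, gene-end scaling gave Cox6a2 -0.043, Cycs -0.0098 and Ndufa4l2 -0.023. Leaving out 1 library gave Cox7b2 -0.17 to 0.52, Cycs -0.039 to 0.49, Cyct -0.34 to 0.13 and Ndufa4l2 -0.053 to 0.46. For later cells, gene-end scaling gave Atp5b 0.094 and Cox7b2 0.13, DESeq2 Atp5b 0.13 and Cox7b2 0.16, and the compared groups alone Cox4i1 -0.10 and Sdha -0.046. Leaving out 1 library gave Atp5b -0.21 to 0.024, Cox4i1 -0.31 to 0.40, Cox7b2 -0.33 to 0.38, Cycs -0.11 to 0.40 and Sdha -0.15 to 0.24. The cause was not tested. For low peaks such as Cox8c, a floor of 0.893 to 3.25 CPM limits what can be seen.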
